A study of Mus musculus with 24 samples.

Results

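Podoplanin-positive cells that had arisen without added Ccr7 in a vector control population of EO771 cells, named X2-PDPN, were compared with that control population, X2, over all genes. The libraries were taken by their labels: the 4 X2-PDPN and the 4 X2 libraries of the second sequencing batch, 8 of the 24 libraries of the series. EO771 is a mammary carcinoma line from C57BL/6 mice, used as a model of triple-negative-like disease. The study profiled RNA to learn what accompanies podoplanin (PDPN) and the chemokine receptor CCR7 in these cells. X2 cells carried the retroviral vector pLNCX2 with the tdTomato reporter and no Ccr7 insert, and were selected with G418. X2-PDPN cells carried the same vector and had been enriched from X2 by cell sorting for a high level of PDPN on the surface. The methods state that no single clones were chosen, whereas the design text of the series calls the populations subclones. Neither group received Ccr7, and both were cultured alike. Each group was a single cell population measured in 4 technical replicates, and the p-values below measure only the spread among technical replicates and not that among independently sorted populations.

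Polyadenylated RNA was read in stranded, single-end libraries, and the deposited values were read counts per Ensembl gene of the GRCm38 build. Total counts were 26852598, 27926900, 30335344 and 29996275 in X2 replicates 1 to 4, and 30500625, 35721027, 29529687 and 27192682 in X2-PDPN replicates 1 to 4. Values per library are given below in the order of these replicates as counts-per-million (CPM), and levels of different genes are compared as transcripts-per-million (TPM), which take gene length into account. Replicates of a group differed by more than counting error alone, the chi-square of a pair of libraries over its degrees of freedom being 2.43 to 5.09, so no library was a second copy of another.

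Podoplanin is a small mucin-like membrane glycoprotein of lymphatic endothelium, fibroblastic reticular cells, podocytes and alveolar type I cells. It binds the platelet receptor CLEC-2 and, through ezrin and moesin, the actin cytoskeleton, and it is found at the invasive front of several carcinomas. Type I interferons act through the IFNAR1 and IFNAR2 receptor chains, JAK1 and TYK2, and transcription factors that bind repeats of GAAA in the promoters of antiviral genes.

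Pdpn itself, the gene of the sorted protein (ENSMUSG00000028583, chr4:143267431-143299564, minus strand), was read at 0.0745, 0.143, 0.165 and 0.267 CPM in X2 and at 25.6, 25.9, 25.4 and 25.7 CPM in X2-PDPN. All 4 sorted libraries lay far above all 4 controls, in which 2 to 8 reads were counted against 700 to 924 in X2-PDPN. The level rose 153-fold, a log2 fold change of 7.25 ± 0.126 (SE, n = 4 per group) with an adjusted p of 2.99e-38 (edgeR's quasi-likelihood test, adjusted by Benjamini-Hochberg), and from 0.33 to 52.9 TPM. Since the cells were sorted on PDPN, this value checks the labels and is no finding. From these bulk counts alone, a larger share of cells with a transcript and more of it per cell cannot be told apart, and the study's flow cytometry of PDPN is not used here. Of the other 10 tested members of a list of podoplanin and its partners, none passed the call used throughout, an adjusted p under 0.05 together with an absolute log2 fold change above 1. By adjusted p alone, 2 of these 10 were higher and 4 lower. The actin linker ezrin (Ezr) had a log2 fold change of −0.25, the hyaluronan receptor Cd44 0.14 and the tetraspanin Cd9 0.04, and the median of the 11 tested members was 0.02 (−0.03 with the median of each chromosome subtracted).

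Ccr7, which neither group had received, was close to absent in both. Its reads numbered 9, 5, 12 and 14 in X2 and 29, 17, 23 and 12 in X2-PDPN, and the groups overlapped. The log2 fold change of 0.92 ± 0.377 (SE) did not pass, with an adjusted p of 0.0537. It passed without X2 replicate 4 (1.11), X2-PDPN replicate 2 (1.08) or X2-PDPN replicate 4 (1.05). The CCR7-PDPN cells of the same batch, which carry the Ccr7 vector, had a mean of 3145 CPM.

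Of the 13314 genes tested, 467 were higher in X2-PDPN (3.51%) and 206 were lower (1.55%). By adjusted p alone, 3760 were higher (28.2%) and 3800 lower (28.5%), so that small shifts measured with little spread between technical replicates were frequent in both directions. The median log2 fold change over all genes was 0.00116, with quartiles of −0.16 and 0.20. Rises above 2 on the log2 scale were found in 87 genes and falls below −2 in 63, and beyond 3 in 19 and 13 genes. Many of the calls were at low level: among the 10645 genes whose mean log2 CPM was 1 or more, 175 were higher and 78 lower, and among the 12324 genes with at least 1 TPM in either group, 331 and 137. The mean log2 CPM, here and below, was taken over the 12 libraries of the batch, those of CCR7-PDPN included. The groups did not overlap in 433 of the 467 higher and 196 of the 206 lower genes, against 51.3% of all genes tested. A test against a 2-fold change in place of a threshold on the estimate called 187 genes higher and 104 lower, so many calls depend on how the threshold is applied. Of the 112 calls among genes named by rule, without the families under other observations, that test ended 43: 37 of 50 with an absolute log2 fold change up to 1.5, 5 of 21 up to 2 and 1 of 41 above 2. Those beyond 1.5 were Aldoc (2.17), Aox4 (1.59), Myl9 (1.58), Irgm2 (−1.57), S100a16 (1.51) and Col13a1 (−1.51). The shares of all genes tested, 3.51% higher and 1.55% lower by the call and 28.2% and 28.5% by adjusted p alone, are the background of each list below.

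Among genes whose mean log2 CPM was 1 or more, the 2 largest rises after Pdpn were in a cartilage collagen and an oxidase. Igfbp5, described below, rose more (4.39) but had a mean log2 CPM of 0.589, with 0.0888 CPM in CCR7-PDPN. Col9a1 (ENSMUSG00000026147, chr1:24177610-24252684, plus strand), a chain of the fibril-associated collagen IX, was read at 0.931, 0.716, 0.692 and 0.733 CPM in X2 and at 12.4, 12.4, 12 and 11.4 CPM in X2-PDPN. It rose 15.8-fold, a log2 fold change of 3.98 ± 0.133 (SE), with an adjusted p of 1.2e-27. Aox3 (ENSMUSG00000064294, chr1:58113130-58200698, plus strand), an aldehyde oxidase of drug and retinoid metabolism, was read at 0.633, 0.752, 0.462 and 0.567 CPM in X2 and at 7.64, 8.06, 8.06 and 7.5 CPM in X2-PDPN. Its log2 fold change was 3.71 ± 0.145 with an adjusted p of 3.88e-25. For both genes each sorted library exceeded each control library, and the 4 values of a group lay close together. In the CCR7-PDPN cells of the same batch, the means were 1.13 CPM for Col9a1 and 0.126 CPM for Aox3.

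Tgfbi (ENSMUSG00000035493, chr13:56609523-56639562, plus strand), a secreted matrix protein that binds collagens and integrins, was the most abundant of the large rises by CPM. It was read at 14.7, 15.3, 13.5 and 13.9 CPM in X2 and at 111, 109, 105 and 108 CPM in X2-PDPN, with no overlap. The log2 fold change was 2.93 ± 0.0427 and the adjusted p 4e-41. The other genes among the 12 largest rises at that level (mean log2 CPM of 1 or more) were Nlrp4f (2.92), an NLR family gene of oocytes and early embryos, the pseudokinase Trib2 (2.86), the cancer-testis gene Magea10 (2.82), the collagen VI chain Col6a3 (2.77), the smooth muscle actin Actg2 (2.76), the developmental phosphatase and coactivator Eya2 (2.66), the calcium-binding Rcn3 of the secretory pathway (2.63) and the transporter Slc16a4 (2.63). Nlrp4f was read at 2.27, 1.36, 1.78 and 0.7 CPM in X2 and at 11.9, 10.5, 11.7 and 11.5 CPM in X2-PDPN. Nlrp4f has close copies in the mouse genome, and reads may have been split among them. The level of Trib2 and Slc16a4 came in part from CCR7-PDPN. Trib2 was at 0.463, 3.35 and 5.46 CPM in X2, X2-PDPN and CCR7-PDPN, and Slc16a4 at 0.333, 2.05 and 3.53 CPM.

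**Figure D1:**
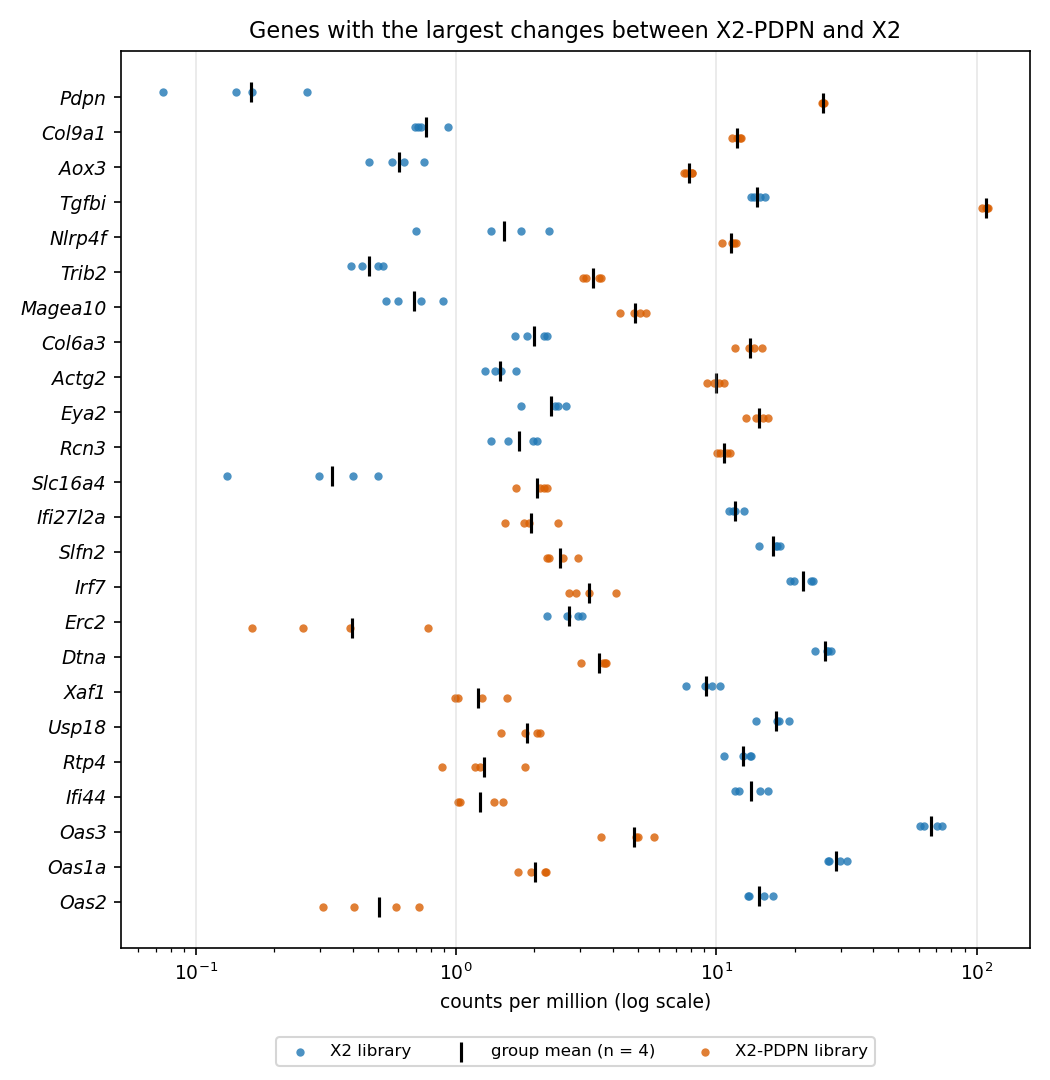
CPM on a log axis for the 12 largest rises and the 12 largest falls among called genes whose mean log2 CPM was 1 or more and whose groups did not overlap, with a dot for each of the 4 X2 (blue) and 4 X2-PDPN (orange) libraries and a black bar at each group mean. Of the 24 genes shown, Pdpn moved furthest upwards and Oas2 furthest downwards.

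Oas2 (ENSMUSG00000032690, chr5:120730333-120749853, minus strand), an enzyme that makes 2′,5′-linked oligoadenylate from ATP once bound to double-stranded RNA, had the largest fall among genes whose mean log2 CPM was 1 or more. It was read at 15.2, 13.2, 13.3 and 16.6 CPM in X2 and at 0.721, 0.308, 0.406 and 0.588 CPM in X2-PDPN. All 4 sorted libraries were below all 4 controls, by 28.9-fold on average, a log2 fold change of −4.85 ± 0.150 (SE) with an adjusted p of 6.57e-26. The next largest falls at that level were in its relatives Oas1a (−3.83) and Oas3 (−3.78), followed by Ifi44 (−3.46), the receptor chaperone Rtp4 (−3.28), the ISG15 protease Usp18 (−3.16), the apoptosis factor Xaf1 (−2.89), the dystrophin partner Dtna (−2.87), the synaptic scaffold Erc2 (−2.75), the transcription factor Irf7 (−2.72), Slfn2 (−2.71) and Ifi27l2a (−2.61). Apart from Dtna and Erc2, these 12 genes are known as interferon-induced. Dtna was read at 23.9, 26.5, 27.5 and 26.8 CPM in X2 and at 3.67, 3.72, 3.76 and 3.02 CPM in X2-PDPN. Erc2 was read at 2.23, 3.04, 2.93 and 2.67 CPM in X2 and at 0.164, 0.392, 0.779 and 0.257 CPM in X2-PDPN.

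The genes of the interferon system were followed through 6 lists ordered by role, which joined held 103 tested genes of 124 listed. Of these, 42 were lower and 1 higher, with a median log2 fold change of −0.76 beside 0.00116 over all genes tested, of which 1.55% were lower and 3.51% higher. By adjusted p alone 75 were lower and 10 higher.

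The receptors and the first steps of the pathway had not moved past the call. Ifnar1 was read at 43.2, 46.3, 43.6 and 46 CPM in X2 and at 42.7, 42.7, 44.9 and 44.8 CPM in X2-PDPN. Ifnar2 was read at 20.9, 20.8, 18.5 and 19.1 CPM in X2 and at 20.3, 19.7, 18.4 and 19.1 CPM in X2-PDPN. In both the groups overlapped, and the log2 fold changes were −0.03 and −0.02, with adjusted p of 0.597 and 0.763. Of the 5 receptor chains tested, 0 passed in edgeR's test even by adjusted p alone. The receptor kinases Jak1 and Tyk2 had log2 fold changes of 0.04 and 0.05. Of the factors downstream, Stat2 had a log2 fold change of −0.42, lower by adjusted p alone, and Irf9 (−1.42) and Irf7 (−2.72) fell past the call. Irf7, which amplifies interferon responses, was read at 23.1, 19.3, 19.8 and 23.6 CPM in X2 and at 4.1, 2.88, 2.71 and 3.24 CPM in X2-PDPN. Of the 22 tested receptors and signalling genes, 3 were called lower and 0 higher, with a median of −0.02 (by adjusted p alone 7 lower and 3 higher).

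Downstream of these factors the called genes were mostly lower. Among the oligoadenylate synthetases and RNase L, 8 of 9 were lower, with a median of −2.61. Oas3, the most abundant, was read at 73.6, 62.6, 60.5 and 70.3 CPM in X2 and at 4.92, 4.98, 3.59 and 5.77 CPM in X2-PDPN. Oas1a was read at 31.8, 27, 26.8 and 30 CPM in X2 and at 2.2, 1.93, 1.73 and 2.21 CPM in X2-PDPN, while Oas1g (−4.36), Oasl2 (−2.61) and Oas1c (−2.43) moved the same way. Oas1a, Oas1c and Oas1g are near-identical copies whose reads may have been split, so their separate values are uncertain. In the list of ISG15 and its enzymes 3 of 5 were lower and the median was −1.54. Isg15, a ubiquitin-like modifier, was read at 29.5, 25.2, 25.8 and 27.1 CPM in X2 and at 8.82, 9.07, 6.74 and 7.76 CPM in X2-PDPN (log2 fold change −1.71), and its conjugating enzyme Ube2l6 fell by 1.54 on the log2 scale. Of the interferon-induced GTPases, 5 of 6 were lower (median −1.57): Gbp3 (−2.18), Gbp7 (−1.69), Igtp (−1.58), Irgm2 (−1.57) and Irgm1 (−1.17), of families that act against intracellular pathogens in vacuoles, Irgm1 and Irgm2 as regulators of the effector members. Gbp genes have close copies and their values are uncertain in the same way.

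Of 15 nucleic acid sensors and adaptors tested, 6 were lower and 0 higher (median −0.25; by adjusted p alone 10 lower and 3 higher). The RNA helicases Ifih1 (−1.84), Dhx58 (−1.61) and Rigi (−1.54), which are themselves induced by interferon, fell, as did Ifi203 (−2.22) and Ifi204 (−1.43) of the DNA-binding PYHIN family. Rigi was read at 87.3, 78.8, 79.3 and 85.1 CPM in X2 and at 30.9, 26.9, 25.1 and 30.2 CPM in X2-PDPN. Zbp1, a sensor of Z-form nucleic acid, also passed (−1.05), but not without X2 replicate 1 (−0.91) or without X2-PDPN replicate 4 (−0.94). The adaptors Mavs (0.36) and Sting1 (0.40), through which such sensors signal, were higher by adjusted p alone. The abundant CpG-RNA binder Zc3hav1 had a log2 fold change of 0.10.

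Among 47 IFIT, IFITM and other antiviral genes, 18 were lower and 1 higher (median −0.75; by adjusted p alone 39 lower and 4 higher). The fall was not shared evenly. Phf11d (−2.78) and Ifi44 (−3.46) fell strongly, while Ifit1, a cap-binding effector often used to read interferon activity, had values of 4.32, 4.08, 2.97 and 4.03 CPM in X2 and 2.98, 3.36, 2.91 and 2.57 CPM in X2-PDPN, which overlapped (log2 fold change −0.36). Ifitm3, the most abundant member and a membrane restriction factor, had a log2 fold change of −0.30. Bst2, or tetherin, which holds budding virus at the surface, was read at 266, 255, 250 and 268 CPM in X2 and at 119, 117, 103 and 114 CPM in X2-PDPN (log2 fold change −1.18), and its mean of 1065 TPM in X2 was the highest of any called gene. Subtracting the median of its chromosome moved Bst2 to −0.98, short of the call. The 1 member that rose, Ifitm1, had 2, 0, 1 and 1 reads in X2 and 48 reads in all in X2-PDPN, a ratio of 11.2 with a 95% exact counting interval of 4.11 to 42.9. IFIT, IFITM and PHF11 genes have close copies, and their values are uncertain where reads were shared.

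Promoters were searched on both strands for the letters GAAA, any 2 bases and GAAA, the core that the interferon-activated complex binds, within 250 bases before the transcription start in RefSeq's table for GRCm38.p6. The letters were present in 978 of all 32851 promoters (2.98%). Sets of genes were counted by gene, a gene holding the letters where any of its promoters did. Of the genes tested, 9759 had a promoter in the table, and 293 of these held the letters (3.00%). Of the 42 genes called lower in the 6 interferon lists, 31 had a promoter in the table, and 17 of these held the letters (54.8%). Of the 60 genes not called in the same lists, 49 had a promoter in the table, and 12 of these held the letters (24.5%). Of the 12 largest falls described above, 7 had a promoter in the table, and Oas1a and Oas3 held the letters while Ifi44, Xaf1, Irf7, Slfn2 and Erc2 did not. Among genes called lower outside these lists the share was 13 of 124 (10.5%), and among genes called higher 8 of 311 (2.57%). A match describes the letters in this window and is neither a site nor a cause, and the lack of one says nothing of the factor. The stretch around the matches is shown for 6 genes that held the letters, with different roles in the response, 5′ to 3′ on the strand of the gene, with the matched letters in capitals. It lies at chr5:120907526-120907575 (minus strand) for Oas1a, at chr5:120777695-120777764 (minus strand) for Oas3, at chr4:156200845-156200926 (minus strand) for Isg15, at chr3:142559969-142560043 (plus strand) for Gbp3, at chr8:71537557-71537632 (minus strand) for Bst2 and at chr11:48871421-48871480 (minus strand) for Irgm1.
Oas1a: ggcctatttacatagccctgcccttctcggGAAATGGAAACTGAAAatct
Oas3: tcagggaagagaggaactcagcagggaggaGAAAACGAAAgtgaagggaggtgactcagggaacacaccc
Isg15: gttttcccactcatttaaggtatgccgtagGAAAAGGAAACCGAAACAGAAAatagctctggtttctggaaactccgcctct
Gbp3: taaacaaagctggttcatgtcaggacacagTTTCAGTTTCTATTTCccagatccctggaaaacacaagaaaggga
Bst2: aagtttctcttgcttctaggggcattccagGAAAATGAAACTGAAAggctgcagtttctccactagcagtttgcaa
Irgm1: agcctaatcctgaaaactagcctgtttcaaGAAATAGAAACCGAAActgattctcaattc
In Gbp3 the matches lie on the opposite strand and read as TTTC, any 2 bases and TTTC. The last matched base lay 5 bases before the start in Oas1a, 15 in Irgm1, 30 in Gbp3, 57 in Isg15, 66 in Oas3 and 115 in Bst2. Isg15 held 3 overlapping matches, Oas3 held 1, and the other 4 held 2.

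Of 19 tested genes of MHC class I and peptide loading, 4 were lower and 0 higher, while 17 were lower and 0 higher by adjusted p alone, beside 1.55% and 28.5% of all genes lower by the call and by adjusted p alone, and the median was −0.53. B2m, the shared light chain, was read at 831, 770, 794 and 810 CPM in X2 and at 412, 399, 402 and 405 CPM in X2-PDPN. The sorted libraries all lay below the controls, and the log2 fold change of −0.98 fell just short of the fold threshold. The heavy chain H2-K1 was read at 83.9, 83.9, 85.1 and 88.1 CPM in X2 and at 37, 40.6, 41.7 and 38 CPM in X2-PDPN (log2 fold change −1.11). The immunoproteasome subunit Psmb9 (−1.36), the class I gene H2-M3 (−1.13) and the class I transactivator Nlrc5 (−1.10) also fell, the last of these to −0.90 and short of the call with the median of its chromosome subtracted. The peptide transporter Tap1 (−0.82) and H2-D1 (−0.68) were lower by adjusted p alone. H2 genes are near-identical to each other, and reads may have been assigned among them.

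Of 11 tested checkpoint ligands and enzymes, 1 fell and 1 rose (median 0.27; by adjusted p alone 3 lower and 5 higher). Cd274, which encodes PD-L1, was read at 4.28, 4.94, 4.22 and 4.37 CPM in X2 and at 1.11, 0.952, 1.83 and 1.54 CPM in X2-PDPN (log2 fold change −1.72). Nt5e, which encodes the adenosine-forming CD73, was read at 31, 27.6, 30.4 and 27.1 CPM in X2 and at 71.9, 67.2, 66.6 and 64.6 CPM in X2-PDPN (log2 fold change 1.23). The 2 genes thus moved in opposite directions with no overlap, and the CD155 gene Pvr, the most abundant of the list, had a log2 fold change of −0.48. Cxcl10, a chemokine commonly induced by interferon, moved against the direction of most genes of that response: it was read at 2.42, 2.65, 2.27 and 2.67 CPM in X2 and at 5.7, 7.08, 6.57 and 6.66 CPM in X2-PDPN (log2 fold change 1.39). The membrane-bound chemokine Cx3cl1 rose as well (1.11), making 2 higher and 0 lower of 9 chemokines tested (median 0.33; by adjusted p alone 4 higher and 2 lower), while the monocyte attractant Ccl2 had a value of −0.43. Of 9 complement genes, 2 were lower and 0 higher (median −0.38; by adjusted p alone 5 lower and 2 higher): C4b (−1.24), and C2 (−1.01), which was no longer called without X2 replicate 2 (−0.97), X2 replicate 4 (−0.99), X2-PDPN replicate 2 (−0.997) or X2-PDPN replicate 4 (−0.99), with upper-quartile factors (−0.99) or among genes with at least 50 counts in 4 libraries (−0.997). C3 had a log2 fold change of −0.73. Of 13 other cytokines, 0 were called higher and 0 lower in edgeR's test (2 and 3 by adjusted p alone), and Mif, the most abundant, had a log2 fold change of −0.03.

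In the joined lists of fibrillar and other collagens, 6 of 22 tested were higher and 1 lower, beside 3.51% and 1.55% of all genes tested, with a median log2 fold change of 0.45 beside 0.00116. Col6a3 was read at 2.23, 2.18, 1.68 and 1.87 CPM in X2 and at 13.3, 11.8, 14 and 15 CPM in X2-PDPN. Its partner in the beaded filaments of collagen VI, Col6a2, was read at 73.8, 76.4, 76.2 and 78.6 CPM in X2 and at 246, 246, 235 and 255 CPM in X2-PDPN (log2 fold change 1.70). Both chains thus rose without overlap, from different starting levels. Among the fibrillar chains, 3 of 8 rose: Col3a1 (2.54), Col1a1 (1.37) and Col24a1 (1.32). Col3a1 was read at 4.62, 4.83, 4.68 and 5.43 CPM in X2 and at 27.2, 27.7, 28.4 and 30 CPM in X2-PDPN. The fibrillar chain with the highest TPM, Col5a1, had a log2 fold change of 0.57 and the basement membrane chain Col4a1 of 0.27, both higher by adjusted p alone. The transmembrane collagen Col13a1 fell by 1.51. Of 23 collagen-modifying enzymes and chaperones, 1 rose, the prolyl hydroxylase P4ha3 (1.34), and 0 fell (median 0.14; by adjusted p alone 13 higher and 6 lower), and the procollagen chaperone Serpinh1 had a value of 0.03.

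Of 38 matrix glycoproteins and proteoglycans, 6 were higher and 2 lower, beside 3.51% and 1.55% of all genes (median 0.30; by adjusted p alone 27 higher and 8 lower). Beside Tgfbi the rises included the elastic fibre protein Emilin1 (1.63), the microfibril protein Ltbp2 (1.48) and the proteoglycan Cspg4, also named NG2 (1.22). The laminin chains Lamb3 (−1.27) and Lamc3 (−1.15) fell. The YAP-responsive matricellular genes Ccn1 (−0.88) and Ccn2 (−0.97) were lower by adjusted p alone, and the abundant matricellular protein Sparc had a value of 0.08. Of 25 matrix proteases and inhibitors, 2 fell, the gelatinase Mmp2 (−2.22) and Adamts7 (−1.24), and 0 rose in edgeR's test. By adjusted p alone 8 were higher and 9 lower, and 1 member passed the call as higher when X2 replicate 3 was left out. The membrane protease Mmp14 had a value of −0.06, and the median of −0.07 turned to 0.03 among genes with at least 50 counts in 4 libraries. Of 16 integrin subunits, 1 rose, the leukocyte subunit Itgal (1.58), and 0 fell (median 0.26; by adjusted p alone 9 higher and 4 lower), while the most abundant, Itgb1, had a log2 fold change of −0.36.

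Of 15 tested factors of epithelial-mesenchymal transition and cadherins, 1 was higher and 1 lower (median −0.06, and 0.07 with the median of each chromosome subtracted). The homeobox gene Prrx2 rose (2.14), from 0.521, 0.358, 0.363 and 0.2 CPM in X2 to 1.64, 1.29, 1.66 and 1.77 CPM in X2-PDPN. The endothelial cadherin Cdh5 fell (−1.48) at a level with overlapping groups, and its adjusted p was 0.0885 without X2 replicate 4, 0.0592 without X2-PDPN replicate 1 and 0.0782 without X2-PDPN replicate 2, while its log2 fold change was −2.22 without X2-PDPN replicate 4. Snai1 (0.52), Vim (0.23) and Twist1 (0.18) were higher and Zeb1 (−0.17, but 0.0267 with its chromosome's median subtracted) lower by adjusted p alone, and Vim stood at 1989 TPM in X2 and 2340 TPM in X2-PDPN. Of 17 epithelial genes, 2 were higher and 1 lower (median −0.18, and 0.12 among genes with at least 50 counts in 4 libraries). The plakoglobin gene Jup (1.04) and the keratin Krt16 (1.01) rose, but Jup was no longer called without X2 replicate 3 (0.99), nor Krt16 without X2 replicate 3 (0.88), X2 replicate 4 (0.95) or X2-PDPN replicate 2 (0.88). The splicing factor Esrp2 fell (−1.28), and Krt8, the most abundant keratin, had a value of 0.31.

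Of 29 muscle contraction genes, 3 rose and 0 fell, beside 3.51% and 1.55% of all genes (median 0.23; by adjusted p alone 14 higher and 6 lower). Actg2 was read at 1.42, 1.29, 1.48 and 1.7 CPM in X2 and at 9.18, 9.83, 10.2 and 10.7 CPM in X2-PDPN. Myosin light chain kinase, Mylk (1.66), and the light chain Myl9 (1.58) rose with it. The smooth muscle actin of myofibroblasts, Acta2, was read at 34.3, 32.8, 33.6 and 33.8 CPM in X2 and at 61.4, 60.1, 58.8 and 59.6 CPM in X2-PDPN, a separation without overlap whose log2 fold change of 0.85 did not reach the fold threshold. The calponin Cnn3, the most abundant of the list, had a value of 0.05.

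**Figure D2:**
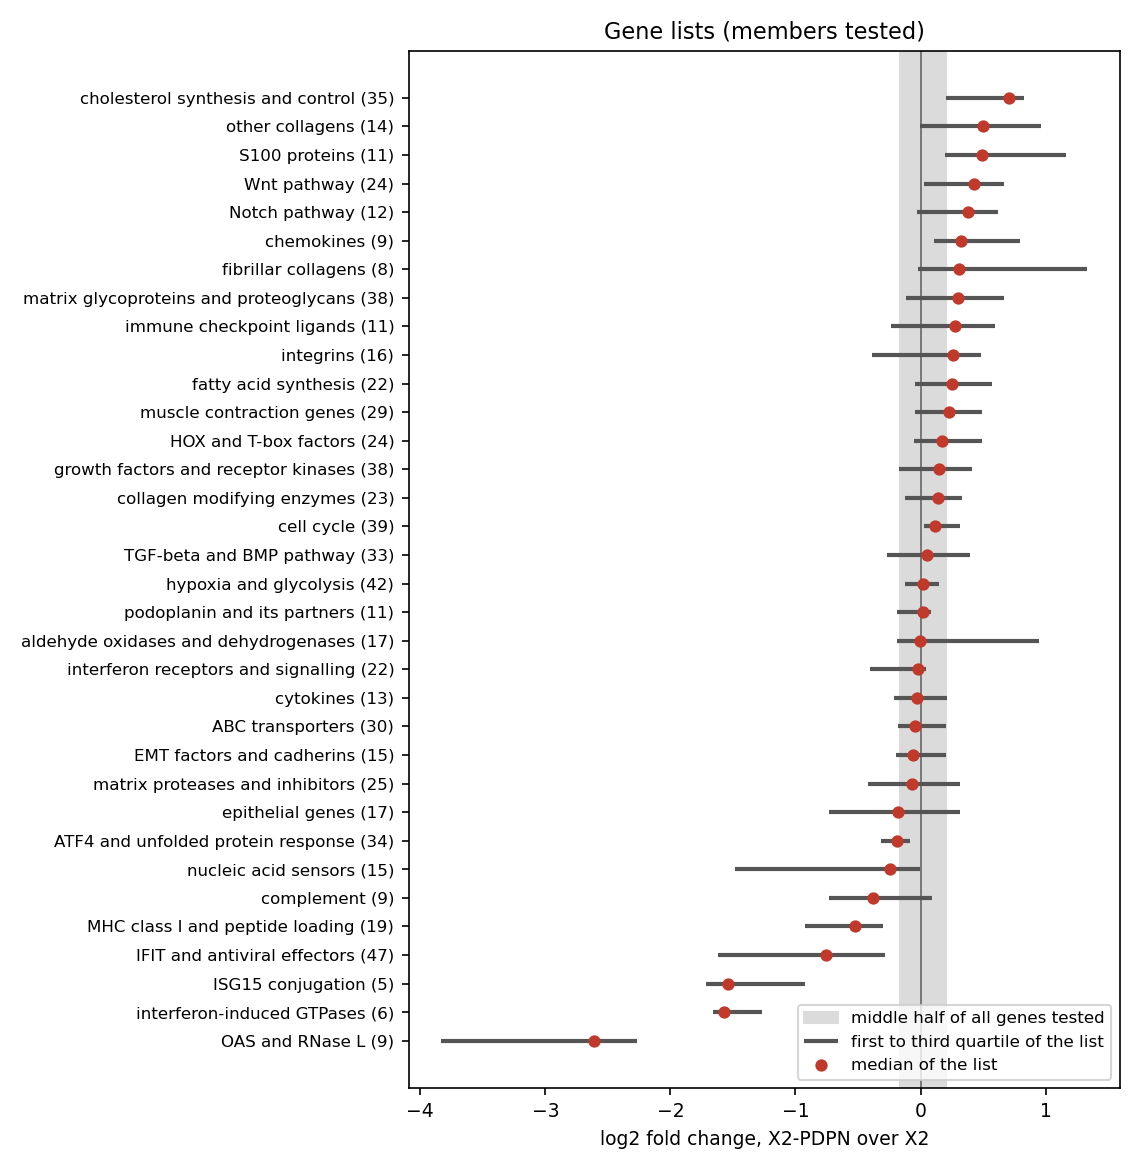
Log2 fold change between X2-PDPN and X2 for each gene list, with a red dot at the median of the members tested, a bar from the first to the third quartile and a grey band for the middle 50% of all genes tested. The oligoadenylate synthetase list lies lowest with a median of −2.61, and the cholesterol list is among those above the band with a median of 0.70.

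Of 20 tested enzymes of cholesterol synthesis, 2 passed the call as higher and 0 as lower, while 19 were higher and 0 lower by adjusted p alone, beside 3.51% and 28.2% of all genes higher by the call and by adjusted p alone, with a median of 0.79 and a range of 0.06 to 1.30. Hmgcs1, which makes HMG-CoA, was read at 130, 122, 132 and 109 CPM in X2 and at 306, 295, 293 and 314 CPM in X2-PDPN (log2 fold change 1.30), and the thiolase Acat2 rose by 1.08. Squalene epoxidase, Sqle (0.87), was higher by adjusted p alone. Of the 15 tested genes of control and transport, 0 passed in edgeR's test, 9 were higher and 2 lower by adjusted p alone, and the median was 0.14, with the regulator Srebf2 at 0.59. Over the 35 genes of both roles the median was 0.70. Of 22 fatty acid synthesis genes, 3 were higher and 0 lower (median 0.25; by adjusted p alone 14 higher and 4 lower). The acetyl-CoA synthetase Acss2 (1.24) and the carboxylase Acacb (1.11) rose, whereas fatty acid synthase, Fasn (0.70), and the desaturases Scd2 (0.34) and Scd1 (0.09) had smaller values. Thrsp, a lipogenic factor, had 1, 2, 2 and 2 reads in X2 and 71 in all in X2-PDPN, a ratio of 9.50 with a 95% exact counting interval of 4.38 to 24.5.

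Hypoxia and glycolysis genes had a median of 0.02 over 42 tested, with 2 higher and 0 lower (by adjusted p alone 15 higher and 14 lower). The 2 that rose were Car9 and Aldoc. The carbonic anhydrase Car9, a classical hypoxia target, was read at 2.16, 1.72, 2.11 and 2.33 CPM in X2 and at 7.44, 9.85, 9.31 and 9.86 CPM in X2-PDPN (log2 fold change 2.14). The aldolase Aldoc had 0, 2, 3 and 3 reads in X2 and 40 in all in X2-PDPN, a ratio of 4.68 with a 95% exact counting interval of 2.16 to 11.6. Hif1a had a value of 0.15, Vegfa of −0.02 and Gapdh of −0.24. Of 39 cell cycle genes, 0 were called in either direction in edgeR's test, although 24 were higher and 2 lower by adjusted p alone (median 0.12), among them Mki67 (0.68) and Ccnd1 (0.38). Of 34 genes of the ATF4 and unfolded protein responses, 2 were lower and 0 higher, and 25 lower and 1 higher by adjusted p alone (median −0.19). The phosphatase subunit Ppp1r15a, or GADD34, fell by 1.12 and the CHOP gene Ddit3 by 1.03, the latter no longer called without X2 replicate 4 (−0.99) or X2-PDPN replicate 4 (−0.99), and Atf4 had a value of 0.04.

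Of 24 Wnt pathway genes, 3 were higher and 0 lower, beside 3.51% and 1.55% of all genes tested (median 0.42; by adjusted p alone 17 higher and 3 lower). Wnt11 (2.27) and the R-spondin receptor Lgr6 (1.98) rose, as did Wnt5b (1.06), which lay just under the threshold without X2 replicate 3 (0.9999). The feedback target Axin2 (0.83) and β-catenin, Ctnnb1 (0.21), were higher by adjusted p alone. Of 33 TGF-β and BMP pathway genes, 2 were higher and 1 lower (median 0.05). The receptor Acvrl1, or ALK1 (1.60), rose. The inhibitory Smad6 (1.12) was not called without X2 replicate 4 (0.88) or X2-PDPN replicate 2 (0.90), or with the median of its chromosome subtracted (0.98). Gdf15, a stress-induced cytokine of the family, was read at 70.8, 73.6, 65.2 and 76.2 CPM in X2 and at 27.7, 26.4, 28.2 and 25.1 CPM in X2-PDPN (log2 fold change −1.40), whereas Tgfb1 (0.38) and Fstl1 (0.47) were higher by adjusted p alone. Of 12 Notch pathway genes, 1 rose, the ligand Jag2 (1.17), and 0 fell (median 0.38; by adjusted p alone 7 higher and 2 lower), with the target Hes1 at 0.43.

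Of 38 growth factors and receptor kinases, 4 were higher and 1 lower (median 0.15; by adjusted p alone 18 higher and 12 lower). Igfbp5, an insulin-like growth factor binding protein (ENSMUSG00000026185), was read at 0.0372, 0.143, 0.198 and 0.333 CPM in X2 and at 4.39, 3.5, 3.93 and 3.68 CPM in X2-PDPN. After Pdpn this was the largest rise of any gene named here, a log2 fold change of 4.39 ± 0.241 (SE), from a level at which few reads were counted in X2. The scavenging receptor Igf2r (1.28) and the kinase Mst1r, or RON (1.26), also rose, as did the EGFR ligand Areg (1.01), which was not called without X2 replicate 1 (0.94), X2-PDPN replicate 2 (0.99) or X2-PDPN replicate 3 (0.95), without a filter on low counts (0.998) or over all 24 libraries with a batch term (0.98). The ErbB ligand Nrg2 fell (−1.61). The kinase Axl, the most abundant of the list, had a log2 fold change of −0.39.

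Aox3 was 1 of 4 higher genes among 17 tested aldehyde oxidases and dehydrogenases (0 lower, median −0.00426; by adjusted p alone 8 higher and 6 lower). The dehydrogenase Aldh3a1 rose by 1.67 and Aox4, the neighbour of Aox3 in the same gene cluster, by 1.59 with overlapping groups. Aldh1l1 (1.19) was not called without X2 replicate 2 (0.98), and the abundant mitochondrial Aldh2 had a value of 0.12. Of 11 S100 calcium-binding proteins, 4 were higher and 0 lower, and 10 were higher by adjusted p alone, beside 3.51% and 28.2% of all genes higher by these rules (median 0.49). S100a4, associated with cell motility, was read at 6.29, 6.23, 6.76 and 6.3 CPM in X2 and at 25, 26.8, 25.9 and 26.9 CPM in X2-PDPN (log2 fold change 2.04). S100a16 (1.51) and S100a14 (1.33) rose too. S100a8 lay on the threshold (1.00) and was not called without X2 replicate 4 (0.80), without X2-PDPN replicate 3 (0.89), by DESeq2 (0.997), in the 8 libraries alone (0.998), without a filter on low counts (0.993) or with the median of its chromosome subtracted (0.979). S100a6, the most abundant, had a value of 0.11. Of 30 ABC transporters, 2 were higher in edgeR's test, Abca9 (2.14) and the organic anion exporter Abcc3 (1.08), and 0 were lower (median −0.05). By adjusted p alone 10 were higher and 9 lower. By the call, 1 passed as lower without X2-PDPN replicate 1 and 1 without X2-PDPN replicate 2. The most abundant, Abcf2, had a value of −0.11. Of 24 HOX and T-box factors, 1 was higher and 0 lower (median 0.17; by adjusted p alone 9 higher and 4 lower). This was Tbx21 (1.14), which lay just under the threshold without X2 replicate 2 (0.998) or X2 replicate 3 (0.997), and Hoxd8 had a value of −0.19. All 39 lists together held 721 tested genes, of which 54 were higher and 61 lower, with a median of 0.03.

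By TPM, the highest of the genes called higher was ND4, a subunit of mitochondrial complex I, with 532 TPM in X2 and 1229 TPM in X2-PDPN. It was followed by the glutathione transferase Gstm1, with 104 and 268 TPM, and by Hmgcs1, with 99.3 and 246 TPM. Gstm1 was read at 43.8, 39.5, 38.9 and 42.9 CPM in X2 and at 105, 106, 108 and 103 CPM in X2-PDPN. Of the lower genes, Bst2 was followed by the galectin gene Lgals9, from 325 to 145 TPM, and by Zfand2a, a stress-induced proteasome adaptor, from 171 to 80.9 TPM.

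The mitochondrial genome took a larger share of the counts in X2-PDPN. Its 15 genes took 0.435%, 0.537%, 0.641% and 0.588% in X2 and 0.711%, 1.05%, 0.850% and 1.04% in X2-PDPN, so the lowest sorted library lay above the highest control. ND4 was read at 158, 205, 224 and 205 CPM in X2 and at 350, 515, 424 and 522 CPM in X2-PDPN (log2 fold change 1.20), the only mitochondrial gene called of 14 tested, with a median of 0.59 over the 14. With that median subtracted, ND4 stood at 0.61 and was not called. Whether the larger mitochondrial share had a part in other differences was not tested.

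Markers of other cell types were summed in each library to see what the populations held. None of the 7 listed leukocyte markers was analysed here. Of 6 lymphatic endothelial markers 3 were tested, and they summed to 0.676, 0.840, 0.932 and 1.20 TPM in X2 and to 0.831, 0.793, 0.989 and 1.02 TPM in X2-PDPN. Lyve1, the most abundant, had a mean of 0.558 TPM in X2 and 0.526 TPM in X2-PDPN. Whether such cells had a part in the level of Pdpn was not tested. Cdh5 was called lower and Pecam1 higher (1.14), the latter not without X2 replicate 3 (0.96) or X2-PDPN replicate 4 (0.98), and Cdh5 had adjusted p of 0.0885, 0.0592 and 0.0782 without X2 replicate 4, X2-PDPN replicate 1 and X2-PDPN replicate 2. The median of these 3 markers was −0.09, and Prox1, Flt4 and Tek were not analysed here. Of 6 fibroblast markers 3 were analysed and 2 tested, summing to 105, 108, 106 and 106 TPM in X2 and to 111, 102, 107 and 104 TPM in X2-PDPN, with 0 of 2 called in edgeR's test (1 higher and 1 lower by adjusted p alone). The 3 analysed were Pdgfra, Pdgfrb and Dpt. Dpt, a dermal matrix protein gene, had 0, 0, 1 and 0 reads in X2 and 8, 15, 9 and 10 reads in X2-PDPN, with no overlap, and means of 0.0178 and 0.734 TPM, and it was not tested because it did not pass the filter on low counts. Pdgfra stood at 59.7 and 67.5 TPM and Pdgfrb at 46.4 and 38.0 TPM in X2 and X2-PDPN, and their median log2 fold change of −0.06 turned to 0.04 with the median of each chromosome subtracted.

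Of 8 mammary basal markers 2 were tested, and their sums of 57.9, 55.4, 57.5 and 57.0 TPM in X2 and 105, 101, 101 and 102 TPM in X2-PDPN were almost wholly Acta2 (56.7 and 102 TPM), with 0 called in edgeR's test (1 higher by adjusted p alone) and a median of 0.36. Of 10 luminal markers 3 were tested, with sums of 429, 417, 440 and 424 TPM in X2 and 542, 543, 508 and 535 TPM in X2-PDPN, mostly Krt8 (425 and 531 TPM). The oestrogen receptor gene Esr1 fell by 1.22 from a low level, 2.68, 2.29, 2.64 and 2.2 CPM in X2 against 0.984, 1.12, 1.15 and 0.883 CPM in X2-PDPN, and was the 1 luminal marker called, while 2 were called when X2-PDPN replicate 2 was left out, and the median of the 3 was −0.91. Foxa1, the other luminal marker tested, had a log2 fold change of −0.91 and was lower by adjusted p alone. With Vim and Krt8 both abundant, X2 and X2-PDPN expressed a mesenchymal filament and a simple-epithelial keratin side by side. The epithelial genes Krt18, Krt19 and Epcam were not analysed here.

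The shifts were not evenly spread over the genome. On chromosome 15 the median log2 fold change was 0.21 over 556 genes, 81.1% of them above 0, and on chromosome 9 it was 0.13 over 719 genes, 70.9% above 0. On chromosome 8 it was −0.20 over 740 genes, 24.7% above 0, and on chromosome 18 −0.20 over 337 genes, 23.7% above 0. Over all genes 50.2% were above 0, and the medians of the other nuclear chromosomes lay within 0.06 of 0. In windows of 10 Mb with at least 20 genes, 7 of 7 on chromosome 15 and 9 of 12 on chromosome 9 had a median above 0.1, with 1 of the 12 below −0.1, and 11 of 12 on chromosome 8 and 9 of 9 on chromosome 18 a median below −0.1, so each of these 4 chromosomes was shifted over most of its length. Of all 215 windows, 26 lay above 0.1 and 37 below −0.1, between −0.33 and 0.30. The number of chromosome copies was not measured, and its part in these shifts was not tested. Subtracting the median of each chromosome left 456 genes higher and 205 lower. Pdpn, Oas2, Col9a1 and Aox3 lie on chromosomes 4, 5 and 1, outside the shifted ones.

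**Figure D3:**
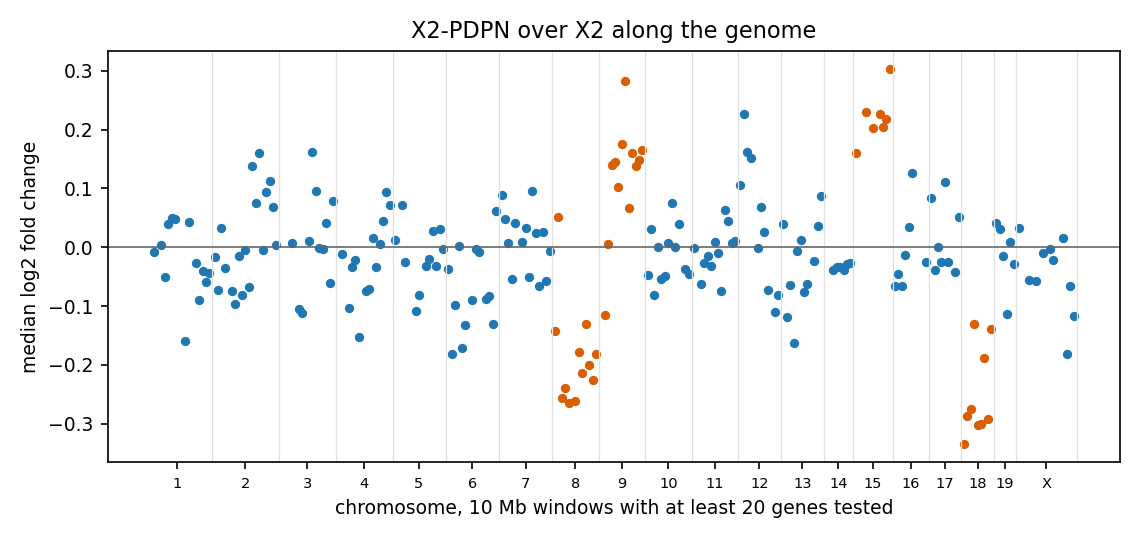
Median log2 fold change between X2-PDPN and X2 in windows of 10 Mb with at least 20 tested genes, along the chromosomes, with chromosomes 8, 9, 15 and 18 in orange. Of the 215 windows 26 lie above 0.1 and 37 below −0.1, with runs of windows on the same side of 0 along the orange chromosomes.

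The sort for PDPN was also made in cells that carried Ccr7, so the difference between the sorts was fitted for all named genes. It is described for the 24 genes with the largest changes among those called without overlap at a mean log2 CPM of 1 or more. These genes were chosen for their change without Ccr7, which favours a larger change there. They were also chosen by a mean level that counts the CCR7-PDPN libraries of the second batch. The counts of differences below therefore describe these genes and support no comparison of the sorts as a whole. Among the other named genes the difference passed in some, such as Nt5e (2.09) and, on few reads, Igfbp5 (5.50). In others, such as Acat2 (−0.09) and Ifih1 (0.07), it did not. The change from X2 to X2-PDPN was set against the change from CCR7 cells, which overexpress Ccr7 and were sorted as PDPN-negative, to CCR7-PDPN cells in the first batch, so each change was taken within 1 batch and no library was shared between the sorts. The study calls X2 PDPN-negative too, but describes a sort for absence of PDPN in the CCR7 cells and not in X2, so Ccr7 and the way the cells set against the sorted ones were obtained cannot be told apart. The sorts also lie in different batches, and each was a single population in technical replicates. Ccr7 therefore cannot be told apart from variation between sorts, which the adjusted p of a difference does not measure.

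X2 and CCR7-PDPN were sequenced in both batches. In X2 the means of the first and second batch were 1.06 and 0.768 CPM for Col9a1, 14.8 and 14.4 CPM for Tgfbi, and 14.7 and 14.6 CPM for Oas2, while Pdpn, of which few reads were counted, was at 0.0626 and 0.162 CPM. In CCR7-PDPN they were 1.18 and 1.13 CPM for Col9a1, 11.3 and 12.2 CPM for Tgfbi, and 0.984 and 0.812 CPM for Oas2. CCR7 was sequenced only in the first batch and X2-PDPN only in the second, so a part of batch in the differences between the sorts was not tested.

 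Pdpn rose in both, from 0.413 to 25.3 CPM in the cells with Ccr7 (log2 fold change 5.91), which the sort required, so its difference is no finding. The PDPN-negative CCR7 cells were at 0.413 CPM and X2 at 0.162 CPM, and CCR7-PDPN and X2-PDPN at 25.3 and 25.7 CPM.

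Of the 11 rises other than Pdpn, the fitted difference passed in 10 by edgeR's test, a direction that their choice favours, with few reads behind those of Magea10, Aox3 and Rcn3. Rcn3 had 9, 7, 5 and 5 reads in CCR7 and 15, 14, 11 and 11 in CCR7-PDPN. Its mean was 0.224 CPM in CCR7 against 1.74 CPM in X2. Col9a1 fell with Ccr7, from 4.69 to 1.18 CPM (log2 fold change −1.99), where it rose without, a difference of 5.96 (adjusted p 4.02e-23). Magea10 had 3, 7, 7 and 2 reads in CCR7 and 0, 2, 0 and 1 in CCR7-PDPN, a ratio of 6.62 of CCR7 to CCR7-PDPN with a 95% exact counting interval of 1.95 to 34.9. Aox3 was at 0.094 and 0.0915 CPM in the cells with Ccr7, where 1 to 6 reads were counted per library, with a difference of 3.75 (adjusted p 2.43e-05), and Tgfbi went from 15.9 to 11.3 CPM there, with a difference of 3.41 (adjusted p 8.97e-30). Some of these genes had higher means in CCR7 than in X2. Eya2 was at 14.3 CPM in CCR7 and 20 CPM in CCR7-PDPN, against 2.32 CPM in X2 and 14.5 CPM in X2-PDPN. Nlrp4f was at 7.62 and 12.8 CPM with Ccr7 against 1.53 and 11.4 CPM without, and Slc16a4 at 2.76 and 3.02 CPM against 0.333 and 2.05 CPM. For these 3 genes the smaller change with Ccr7 did not go with a lower mean in the sorted cells. Only Pdpn, Trib2 (1.16), Col6a3 (3.11) and Actg2 (1.41) of the 12 rose past the call in both sorts. Actg2 went from 0.624 CPM in CCR7 to 1.59 CPM in CCR7-PDPN, which did not exceed X2 of the same batch (1.60 CPM). In the second batch it was at 1.47 CPM in X2 and 9.99 CPM in X2-PDPN. Trib2 went from 2.16 to 4.90 CPM with Ccr7, against 0.463 and 3.35 CPM without. Col6a3 was the gene for which no difference was detected (−0.35, adjusted p 0.291), with 15.4 and 131 CPM in CCR7 and CCR7-PDPN.

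Of the 12 falls, 11 also fell past the call with Ccr7, Erc2 being the exception (−0.40 with Ccr7, a difference of −2.35). The difference passed in 7 of the 12, again in the direction that their choice favours. Oas2 fell from 9.58 to 0.984 CPM in the cells with Ccr7 (log2 fold change −3.27), and the difference of −1.59 passed with an adjusted p of 0.000133. The differences were −1.84 for Oas1a, −1.59 for Oas3, −1.56 for Xaf1, −1.30 for Irf7 and −1.05 for Rtp4. Levels in CCR7 were below those in X2 for these genes: Irf7 was at 8.97 CPM in CCR7 and 3.34 CPM in CCR7-PDPN against 21.4 and 3.23 CPM in X2 and X2-PDPN, Xaf1 at 4.29 and 1.68 CPM against 9.16 and 1.21 CPM, and Rtp4 at 3.19 and 0.671 CPM against 12.6 and 1.28 CPM. For Rtp4 the difference no longer passed without X2-PDPN replicate 3 (−0.90), CCR7-PDPN replicate 1 (−0.98) or CCR7 replicate 3 (−0.98). For Usp18 it was −0.87, and passed the threshold without CCR7-PDPN replicate 3 (−1.01) or CCR7-PDPN replicate 4 (−1.07). For Ifi44 (−0.60), Slfn2 (−0.60), Ifi27l2a (−0.28) and Dtna (0.30) the difference did not pass the fold threshold.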

How the data were processed

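Per the methods, TruSeq stranded mRNA libraries were sequenced on a NextSeq 550 and mapped to GRCm38 (mm10 in the submitters' processing notes). The authors deposited raw read counts per Ensembl gene with gene lengths in bases, without normalisation, in 1 table per batch. The batch 2 table lists 13915 genes, and the smallest of their maximum counts was 10. The filter behind it is not given in the sources used here. Symbols came from the tables for 12549 genes and from the reference annotation for 1355, and 11 had none.

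The fit used the 12 libraries and 3 groups of batch 2 with edgeR 4.0.16 in R 4.3.3: TMM factors (0.987 to 1.01), filterByExpr, which kept 13314 genes, and robust quasi-likelihood tests with Benjamini-Hochberg adjustment over all of them. A gene was called where its adjusted p was below 0.05 and its log2 fold change beyond 1 or −1. Standard errors were derived from the fold change and the F statistic of each gene. The difference between the sorts was fitted over 24 libraries, 6 groups and 13690 genes. TPM used the deposited lengths. Python 3.11.15 with pandas 2.3.3, numpy 2.4.6 and scipy 1.17.1 gave the summaries, and matplotlib 3.10.9 the plots. Promoter sequences and starts were those of RefSeq for GRCm38.p6, matched by gene symbol. A gene listed there under another symbol was counted as having no promoter.

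Named genes were Pdpn, Col9a1, Aox3 and Oas2, the 12 largest rises and falls among called genes without overlap whose mean log2 CPM was 1 or more, the 6 largest called members, the most abundant and the defining members of each of 39 lists, and the 3 most abundant called genes in each direction. A few members that this rule would name are not reported here. Members and lists were chosen with earlier results of these data known. Alternatives were upper-quartile and RLE factors, DESeq2 1.42.0, other filters, other sets of libraries, a replicate block, other thresholds, subtraction of chromosome medians and each library left out. The method was tested on simulated data.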

Additional observations from a re-analysis of the deposited data

Results flagged for a closer look

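For each named gene the 4 libraries of a group were searched for a single value whose gap to the nearest of the other 3, divided by the range of the 4, was above Dixon's 95% critical value, which chance exceeds in about 1 in 20 groups. This picked out 10 of 340 groups. In X2 replicate 3, S100a4 was at 6.76 CPM against 6.23 to 6.30 in the others, Jup at 23.3 against 26.1 to 26.3, Serpinh1 at 995 against 1020 to 1024, and Esrp2 at 0.363 against 0.466 to 0.484. In the other X2 libraries, Thrsp was at 0.0372 CPM in replicate 1 against 0.0659 to 0.0716, and Scd2 at 1686 in replicate 4 against 1721 to 1724. In X2-PDPN, Col5a1 was at 625 CPM in replicate 2 against 651 to 655, Sqle at 298 in replicate 3 against 311 to 313, H2-M3 at 2.32 in replicate 4 against 2.84 to 2.95, and Dtna at 3.02 in replicate 4 against 3.67 to 3.76. Of these genes Jup was the 1 whose call ended without the library concerned, at a log2 fold change of 0.99 without X2 replicate 3.

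Among the 24 genes defined above, with other named genes not counted, the change with the sort for PDPN differed between cells without and with Ccr7 in 18. This was by the fit over both batches, and 17 of 23 differed without Pdpn, on which the cells were sorted. These genes were chosen for their change without Ccr7, which favours a larger change there. The differences in log2 fold change (X2-PDPN minus X2, less CCR7-PDPN minus CCR7) were 5.96 for Col9a1, 3.41 for Tgfbi, 2.50 for Slc16a4, 2.16 for Eya2, 2.15 for Nlrp4f, 1.72 for Rcn3, 1.70 for Trib2 and 1.35 for Actg2. Several of these genes started from different levels, Eya2 from 14.3 CPM in CCR7 and 2.32 CPM in X2, Nlrp4f from 7.62 and 1.53 CPM and Slc16a4 from 2.76 and 0.333 CPM. Rcn3 started from 0.224 and 1.74 CPM, with 5 to 15 reads per library in the cells with Ccr7. For Pdpn the fit gave 1.34, which is no finding, since the sort fixed its change and its mean in X2 was 0.0626 CPM in the first batch and 0.162 CPM in the second. For Magea10 and Aox3 the fit gave 5.34 and 3.75, but 0 to 7 and 1 to 6 reads per library were counted in the cells with Ccr7, so these values are fitted ones of uncertain size. The others were −2.35 for Erc2, −1.84 for Oas1a, −1.59 for Oas2, −1.59 for Oas3, −1.56 for Xaf1, −1.30 for Irf7 and −1.05 for Rtp4, the last not past the threshold without X2-PDPN replicate 3 (−0.90), CCR7-PDPN replicate 1 (−0.98) or CCR7 replicate 3 (−0.98). Each change was taken within its batch, and Ccr7 cannot be told apart from the sort of the CCR7 cells as PDPN-negative, a step the study does not describe for X2. Nor can it be told apart from batch or from variation between single sorted populations.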

How the results depend on the processing

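The number of genes called depended most on the threshold and on the filter. Against 467 higher and 206 lower, a filter of at least 50 counts in 4 libraries gave 227 and 107, the test against a 2-fold change 187 and 104, and no fold threshold 3760 and 3800. RLE factors (467 and 206), upper-quartile factors (481 and 203), no filter (559 and 243), the 8 libraries alone (422 and 192), all 24 libraries with a batch term (488 and 244), DESeq2 (462 and 207) and subtraction of chromosome medians (456 and 205) stayed within 1.5 times. Leaving out each library gave 483 to 531 higher and 209 to 243 lower genes, and 365 and 177 were called in every such fit. The replicate block gave 464 and 207 and, of the named calls, ended those of Krt16 (0.9992) and S100a8 (0.9997). Replicate numbers did not pair the libraries: the correlations of same-numbered X2 and X2-PDPN libraries were 0.0554, 0.00631, −0.0194 and −0.0407, and 1 of 4 X2-PDPN libraries correlated best with its own number.

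Of 112 called genes named by rule, without the families under other observations, 68 were called in each of the 19 settings that tested them and 99 in each of the 8 fits that leave out a library. The test against a 2-fold change ended 43 calls. Values that turned direction belonged to genes that were not called. With chromosome medians subtracted these were Tyk2 (−0.0821), Atf4 (−0.18), Ifnar2 (0.00321) and Zeb1 (0.0267). With a library left out, Vegfa ranged from −0.0624 to 0.00221, Ifnar2 from −0.0565 to 0.00837, Mif from −0.0848 to 0.00742 and Lyve1 from −0.19 to 0.0199. The median of the podoplanin list turned to −0.03 with chromosome medians subtracted, and the filter of at least 50 counts left no lymphatic endothelial marker to test. Of the 24 genes described for the difference between the sorts, Pdpn included, 18 differed, and 17 to 19 with a library left out. No scaling moved the median of all genes by more than 0.0184.

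Technical replicates of 1 sorted population per group show the precision of the libraries (biological coefficient of variation 0.0322) and not how another sort would behave. Genes read a few times per library, such as Ifitm1, Thrsp and Aldoc, have wide intervals.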

Other observations

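Some gene families outside the lists were picked after their values had been seen, so their counts describe these libraries only. Of 14 glutathione transferases tested, 4 were higher and 0 lower, beside 3.51% and 1.55% of all genes tested: Gstm6 (log2 fold change 1.88), Gsta4 (1.69), Gstp2 (1.38) and Gstm1 (1.36). By adjusted p alone 9 were higher and 1 lower, beside 28.2% and 28.5% of all genes, and the median was 0.28. The abundant Gstp1, a near-identical copy of Gstp2, had a value of 0.17, so the value of Gstp2 is uncertain.

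The 2 early growth response factors tested, Egr1 (1.69) and Egr3 (1.93), both immediate-early transcription factors, were higher. Of 8 clade B serpins, 1 was higher, Serpinb8 (1.06, but 0.96 without X2 replicate 1, 0.93 without X2 replicate 3 and 0.95 without X2-PDPN replicate 1), and 3 were lower: Serpinb6b (−2.30), Serpinb9c (−1.81) and Serpinb9b (−1.13), the most abundant of these with means of 96.1 CPM in X2 and 43.6 CPM in X2-PDPN. The Serpinb6 and Serpinb9 genes form clusters of close copies. Of 7 carbonic anhydrases, 3 were lower, Car6 (−1.62), Car7 (−1.16, and −0.96 with the median of its chromosome subtracted) and Car13 (−1.10), and Car9 was the 1 that was higher. Within the mitochondrial genome the messenger RNAs of ND6 (0.97), COX1 (0.87), ND5 (0.67) and CYTB (0.66) were higher by adjusted p alone, ND6 also past the fold threshold without X2 replicate 2 (1.04), X2 replicate 3 (1.03) or X2-PDPN replicate 3 (1.03), and COX1 went from a mean of 3065 to 5563 CPM, while the ribosomal RNA gene mt-Rnr1 had a value of −0.20.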
